A study of Mus musculus with 1 sample.

Results

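The cells described here are mouse bone marrow cells with RNA for both Ace and Adgre4. Ace encodes angiotensin-converting enzyme, and Adgre4 encodes an adhesion G protein-coupled receptor of myeloid cells. A cell was included if it had at least 3 counts of Ace and at least 2 of Adgre4. It also had to hold fewer than 50 counts per 10000 of Camp, a neutrophil granule gene. Of 10528 cells that carried a single hashtag, had at least 500 genes and had at most 20% mitochondrial counts, 136 (1.29%) met this rule. Because measured counts of Ace, Adgre4 and Camp chose the cells, their levels, and those of genes that go with them, are a description and carry no test.

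The study profiled sorted progenitors from mouse bone marrow by 3′ single-cell RNA sequencing on the BD Rhapsody microwell system, with cDNA amplified by TAS-Seq. The sorted material was a cKit+Lin- progenitor gate from a naïve and from an LPS-injected mouse, granulocyte-monocyte progenitor-derived monocyte precursors (GMP-MoPs) from both mice, and common monocyte precursors (cMoPs) from the naïve mouse. LPS, lipopolysaccharide, is a bacterial cell wall product that provokes inflammation. Before pooling, each sorted sample was stained with a barcoded streptavidin hashtag. The hashtags were named A961 to A965, and 100, 100, 15000, 100 and 15000 cells were loaded for them. The labels do not say which hashtag marked which population or mouse, and give no strain, age, sex, dose or time. Each sorted sample was present once, so there was no replicate, no p-value is given, and all intervals cover counting error only. After the filter, 68, 104, 4716, 73 and 5567 cells carried these hashtags in the same order, with total counts from 8822 to 140994 per cell. For A962 the 104 cells exceed the 100 loaded. Loaded numbers or hashtag calls are therefore not exact, and the reason is not given in the sources used here.

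Mouse blood monocytes fall into a classical kind with high Ly6C, which enters inflamed tissue through the chemokine receptor CCR2, and a nonclassical kind with low Ly6C. Nonclassical monocytes crawl along the inner wall of blood vessels, using the integrin LFA-1 and the receptor CX3CR1, and clear damaged endothelial cells. They arise largely from classical monocytes, depend on the nuclear receptor Nr4a1 and on CSF1 receptor signals, do not divide, and outlive classical monocytes. ACE, CD300e, TREML4 and CD43 (Spn) are among their surface markers.

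The genes that set these cells apart lie on several chromosomes. In GRCm38 with GENCODE M21 annotation, Ace spans chr11:105967945-105989964 on the plus strand, Adgre4 chr17:55749984-55853662 on the plus strand, Cd300e chr11:115051917-115062177 on the minus strand and Treml4 chr17:48264295-48275360 on the plus strand. Fcgr4, a receptor for IgG, spans chr1:171018920-171029761 on the plus strand, and Bcl2a1b, an anti-apoptotic member of the BCL2 family, chr9:89199209-89207827 on the plus strand. The 250 bases before the RefSeq start of 5 of the genes with the largest excess over other monocytes are shown because PU.1 (Spi1), the central transcription factor of monocytes, binds purine-rich sites with a GAGGAA core. Capitals mark GAGGAA, or TTCCTC where that core lies on the opposite strand. The sequences are RefSeq promoters on GRCm38.p6, written 5′ to 3′ on the strand of the gene. Ace has 2 listed starts: the first gives the full-length somatic enzyme, and the second lies inside the gene, where the testis form of the enzyme begins.
Ace, first start, chr11:105967698-105967947, plus strand: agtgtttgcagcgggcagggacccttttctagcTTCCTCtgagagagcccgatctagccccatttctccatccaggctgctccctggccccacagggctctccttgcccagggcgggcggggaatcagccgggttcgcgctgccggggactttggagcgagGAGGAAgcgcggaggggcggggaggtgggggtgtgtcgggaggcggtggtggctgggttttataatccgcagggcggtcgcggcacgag
Ace, second start, chr11:105974939-105975188, plus strand: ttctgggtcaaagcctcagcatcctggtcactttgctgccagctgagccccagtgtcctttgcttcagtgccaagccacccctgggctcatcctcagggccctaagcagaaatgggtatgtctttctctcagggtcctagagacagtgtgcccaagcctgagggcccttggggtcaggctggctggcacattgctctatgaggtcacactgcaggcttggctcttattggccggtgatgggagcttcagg
Cd300e, chr11:115062040-115062289, minus strand: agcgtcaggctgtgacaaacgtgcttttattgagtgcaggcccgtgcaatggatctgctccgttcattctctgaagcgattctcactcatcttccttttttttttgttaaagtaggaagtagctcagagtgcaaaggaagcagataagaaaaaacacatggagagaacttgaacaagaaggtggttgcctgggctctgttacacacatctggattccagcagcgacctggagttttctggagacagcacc
Bcl2a1b, chr9:89199023-89199272, plus strand: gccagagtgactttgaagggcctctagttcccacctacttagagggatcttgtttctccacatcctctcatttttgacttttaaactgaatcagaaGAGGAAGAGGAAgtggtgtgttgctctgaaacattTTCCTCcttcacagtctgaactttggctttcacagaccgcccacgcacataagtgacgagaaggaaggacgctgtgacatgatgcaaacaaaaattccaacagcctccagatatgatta
Fcgr4, chr1:171018676-171018925, plus strand: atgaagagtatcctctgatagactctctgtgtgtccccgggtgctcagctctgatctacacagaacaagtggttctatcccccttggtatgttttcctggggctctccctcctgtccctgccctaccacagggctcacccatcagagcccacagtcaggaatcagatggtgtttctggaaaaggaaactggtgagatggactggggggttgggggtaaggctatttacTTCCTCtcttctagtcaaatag
Treml4, chr17:48264045-48264294, plus strand: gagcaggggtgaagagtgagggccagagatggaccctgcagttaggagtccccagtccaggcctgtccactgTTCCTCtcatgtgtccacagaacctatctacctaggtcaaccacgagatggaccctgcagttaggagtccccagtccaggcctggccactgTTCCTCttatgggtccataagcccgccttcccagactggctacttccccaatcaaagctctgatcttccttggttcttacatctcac

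The core stood 217 bases (minus strand) and 89 bases (plus strand) before the first start of Ace, and was not found before its second start or before Cd300e. It stood 154, 148 and 119 bases before the start of Bcl2a1b, 22 bases before that of Fcgr4, and 178 and 87 bases before that of Treml4. Over all 32851 promoters of the table, 7639 (23.3%) held GAGGAA on either strand in the same 250 bases. Of the 15 genes with the largest excess in the Ace/Adgre4 cells over later monocytes, 12 had a promoter in the table and 8 of these held the core. Counted by promoter, as the share of the whole table is, it was 8 of 14 (57.1%), since some genes have more than 1 start. Of the 15 genes with the largest deficit, 11 had a promoter and 5 held it, or 7 of 15 promoters (46.7%). Of the genes with the largest excess, Eno3, Adgre4 and Serpinb6a, whose promoters are not shown, did not hold the core. Bcl2a1a, Bcl2a1b and Bcl2a1d are near copies of each other and account for 3 of the 8 genes that held it. These are matches of letters and were not tested as binding sites. The single-cell counts do not tell which Ace start was used.

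The markers given for nonclassical monocytes were high in the cells. Gngt2, a G protein gamma subunit, was detected in all 136, and Cx3cr1 in 124. The rule did not use Cd300e, Spn, Treml4, Eno3, Nr4a1, Itgal, Gngt2 or Cx3cr1. Summed over the 10 nonclassical markers, the level in a cell ran from 5.24 to 137 per 10000, against 0 to 27.7 in the 454 later monocytes defined below. This sum includes Ace and Adgre4, which chose the cells, so part of the difference is set by the rule. Of the kinds described below, plain cells had a median of 83.5, class II cells 50.1 and deep cells 17.0, against 3.97 in later monocytes. Summed over 6 classical monocyte markers the medians were 4.43, 5.53, 25.5 and 96.1. These 6 include Ccr2 and Fn1, which chose the later monocytes. A small group with MHC class II genes and a group with very high total counts went partly against the nonclassical label, and their values are given below. Where a value is given for all 136 cells, it includes them.

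Comparison cells were later monocytes, chosen by at least 3 counts each of Ccr2 and Fn1 with Camp under 50 and Mpo under 10 per 10000. Ccr2 and Fn1 are classical monocyte genes, and Mpo encodes the myeloperoxidase of granulocyte and monocyte progenitors. Total counts differed between the groups. The median was 12523.5 in the Ace/Adgre4 cells, 21642.5 in later monocytes and 24198 in all cells kept. Of the Ace/Adgre4 cells 33 (24.3%) had under 10000 counts, against 3.36% of all cells kept. The share of cells meeting the rule was 9.32% (33 of 354) below 10000 counts, 3.91% (34 of 870) from 10000 to 12500, 2.43% (23 of 946) from 12500 to 15000 and 0.851% (15 of 1762) from 15000 to 20000. It reached 0.129% (2 of 1550) from 20000 to 25000 and was 0.575% (29 of 5046) from 25000 upwards. The rule counts are not scaled to depth, so a deep cell meets it with a lower level than a shallow cell. Most of these cells were small in RNA, and their share was lowest just below 25000 counts.

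**Figure D1:**
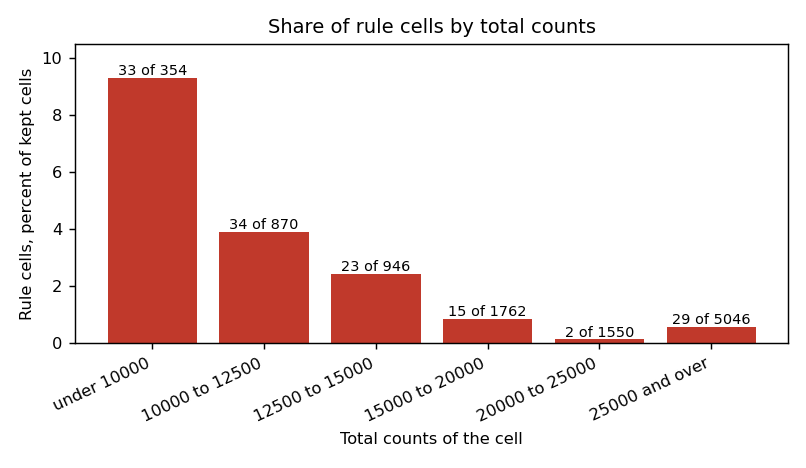
Share of kept cells that met the Ace and Adgre4 rule (percent, y axis) in 6 ranges of the cell's total counts (x axis), 1 bar a range starting at 0. The share is 9.32% below 10000 counts, 0.129% from 20000 to 25000 and 0.575% from 25000 upwards.

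The cells were divided at 25000 counts, a limit chosen after seeing this gap, and by 3 further programmes. The 92 plain cells had at most 25000 counts, Mpo under 10 per 10000, and met neither the class II rule (at least 10 counts of H2-Aa and 5 of H2-Ab1, with Cd79a under 3) nor the erythroid rule (at least 3 counts of Klf1 and of Car2). The 13 class II cells had at most 25000 counts and met the class II rule. The 29 deep cells had more than 25000 counts, and 2 remaining shallow cells had Mpo of 10 per 10000 or more. Total counts ran from 8844 to 21090 in the plain cells (median 11254) and from 25013 to 77103 in the deep cells (median 47685), a ratio of medians of 4.24. The class II cells had a median of 10852. No barcode number was shared between hashtags.

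In counts before any scaling, the deep cells held as many counts of some nonclassical genes as a plain cell, and fewer of others. Median counts per cell were 7 and 7 for Adgre4, 5 and 5 for Cx3cr1 and 4 and 4 for Itgal, in plain and deep cells in turn. They were 10 and 6 for Ace, 33.5 and 18 for Gngt2, 8 and 4 for Eno3, 9 and 4 for Cd300ld, 3 and 1 for Nr4a1, 11 and 7 for Clec4a3, 11.5 and 10 for Csf1r, 7 and 5 for Fcgr4, 3.5 and 3 for Cd300e and 4 and 3 for Treml4. Ace and Adgre4 counts chose the cells. Against this, Ly6c2 had a median of 1 count in plain and 88 in deep cells, and Mpo 0 and 6, with an upper quartile of 142 in deep cells. Scaled per 10000 counts, Gngt2 ran from 7.14 through a median of 30.2 to 60.5 in plain cells, and from 1.30 through 3.67 to 31.6 in deep cells. In later monocytes Gngt2 ran from 0 through 0.709 to 22.7, so the median of the deep cells lay between the other medians, and the ranges of all 3 groups overlapped.

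**Figure D2:**
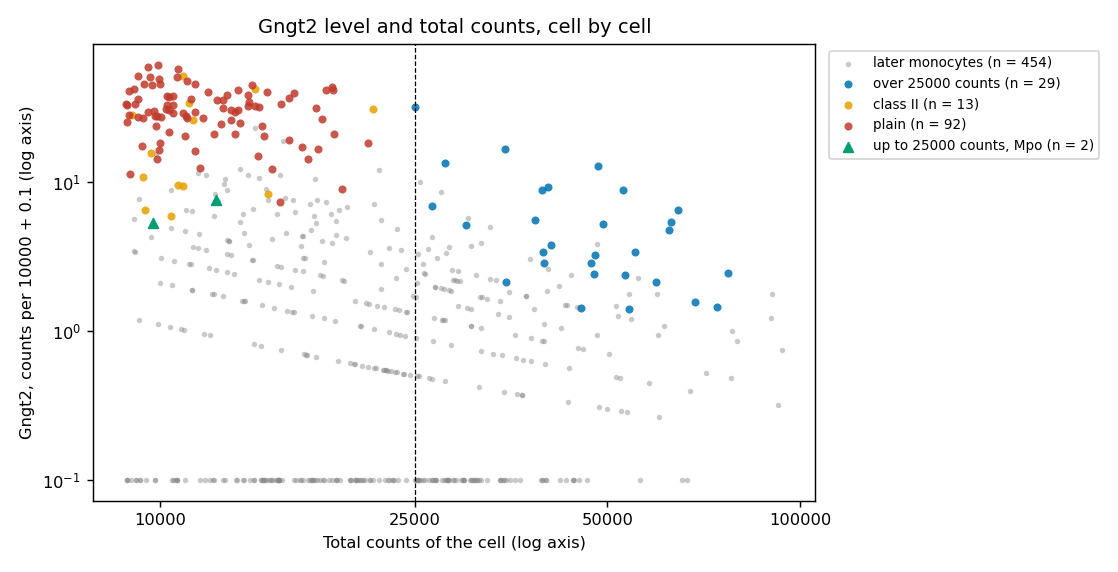
Gngt2 level (counts per 10000 with 0.1 added, log y axis) against total counts (log x axis), 1 point a cell, coloured by kind, with later monocytes for comparison and a dashed line at 25000 counts. Plain cells sit at 7.14 to 60.5 and deep cells at 1.30 to 31.6.

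The deep cells carried other lineages' genes beside Ace and Adgre4. Of the 29, 10 had Mpo of 10 per 10000 or more, 5 met the erythroid rule, 4 met the class II rule, and 11 met none of these. The 10 with Mpo had medians of 44.8 per 10000 for Mpo and 40.3 for Elane, a neutrophil elastase gene of granule progenitors. The 5 erythroid ones had medians of 19.1 for Car2 and 13.9 for Hba-a1, an adult globin, and 4 of them carried A963. The summed T and NK markers, nearly all Nkg7, Trbc2 and Cd3d, reached 47.4 per 10000 in a deep cell, against at most 4.15 in plain cells. The deep cells held 393 counts of Nkg7, 82 of Trbc2 and 43 of Cd3d. Over all cells kept, Nkg7 had 82183 counts, Trbc2 184 and Cd3d 443. Nkg7 was thus widespread in the pool, and its counts alone do not point to T or NK cells. RNA of Xist, made by female cells, together with RNA of a Y-linked gene was found in 10 of 29 deep cells (34.5%, 95% Clopper-Pearson interval 17.9 to 54.3). The share was 11.8% (592 of 5017) in other cells above 25000 counts, 2.17% (2 of 92) in plain cells and 4.67% (251 of 5375) in other cells up to 25000 counts. Scrublet, which scores cells against simulated pairs, called 5 of 29 deep cells (17.2%) and 2 of 92 plain cells, but found just 19 of the 190 cells that the authors had named doublets. Whether deep cells are pairs of cells was not tested further, and results are given with and without them.

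Markers of several other lineages were at or near 0 in the plain cells, while neutrophil markers and RNA of some abundant genes were present. The summed B cell markers were 0 in 76 of 92 plain cells, with Cd79a and Vpreb3 at 0 counts over all of them. The T and NK markers were 0 in 87 cells, with Cd3e, Cd3d and Trbc2 at 0 counts. Megakaryocyte markers were 0 in 89 cells, basophil and mast cell markers in 86, stem cell markers in 82 and eosinophil markers in 75. Of the endothelial list Cdh5, Kdr and Emcn had 0 counts, while Ace itself and Pecam1, which monocytes also express, had counts. Klf1, which drives erythroid genes, had 0 counts, while Hba-a1 had 64, Hba-a2 73, Hbb-bs 56 and Car2 23 counts over the 92 cells. Of the plasmacytoid dendritic cell genes, Siglech had 0 counts, Cox6a2 5, Ly6d 6, Tcf4 37 and Bst2 128. Bst2 stood at 114 CPM (counts scaled to a total of 1000000) in plain cells and 152 in later monocytes. Of the dendritic cell genes, Zbtb46 and Clec9a had 0 counts, Xcr1 2, Flt3 8 and Batf3 16. A count of 0 in these 1126738 summed counts limits a gene to 3 counts over the group. The azurophil granule genes had a median sum of 1.70 per 10000, against 4.81 in later monocytes and 8.25 in deep cells, where the highest was 373. Neutrophil markers, led by S100a8 and S100a9, had a median sum of 43.0 per 10000 in plain cells and 46.4 in later monocytes. After thinning to 8800 counts, S100a8 was found in 100% of plain cells and 100% of the cells that met the erythroid rule, and Camp in 90.2% and 87.0%. Camp stood at 431 CPM in plain and 1029 CPM in erythroid cells.

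The sort was labelled cKit+Lin-, but Kit was detected in 11 of the 136 cells (8.09%) and in 2 of the 92 plain cells (2.17%), against 19.3% of all cells kept. Later monocytes were similar, with Kit in 2.64%. A lone count can come from free RNA in the capture, so each share is set beside that in cells that should lack the gene. Erythroid cells, chosen by Klf1 and Car2, had a median total of 43225 and held a count of Gngt2 in 16.9%, of Cx3cr1 in 7.30%, of Ace in 1.62% and of Adgre4 in 1.08%. After every cell was thinned to 8800 counts, Gngt2 was found in 100% of plain cells, 47.4% of later monocytes and 4.59% of erythroid cells. Cx3cr1 was found in 89.1%, 46.0% and 2.16% of them, and Csf1r in 100%, 65.2% and 1.76%. Nr4a1 was found in 75%, 5.95% and 0.135%, and Cd300e in 71.7%, 0% and 0.405%. The unthinned shares for Cd300e were 79.3% of plain cells and 0.220% of later monocytes. All of these genes stood far above the erythroid background in plain cells.

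The Ace/Adgre4 cells and the later monocytes were compared by counts summed over cells, in CPM. Of 3248 genes with at least 50 CPM in either group, 224 (6.9%) were at least 2-fold higher in the Ace/Adgre4 cells with 10 CPM added, and 147 (4.53%) at least 2-fold lower. With the plain cells alone it was 503 (14.8%) higher and 410 (12.1%) lower of 3401. The median log2 ratio over all genes was 0.04 with all cells and 0.01 with plain cells. Both groups were chosen on their monocyte genes, so these are descriptions. The 15 genes with the largest excess were Ace, Eno3, Cd300e, Adgre4, Bcl2a1b, Fcgr4, Pltp, Fabp4, Bcl2a1d, Tppp3, Cd300ld, Treml4, Gngt2, Serpinb6a and Bcl2a1a. All 15 were also the 15 leading genes of the plain cells. All 15 were at least 2-fold higher within A963 alone, where 8.27% of genes were, and within A965 alone, where 7.74% were. A965 gave 109 of the 136 Ace/Adgre4 cells and 312 of the 454 later monocytes. The 15 genes were picked from these same cells, so this is no independent check.

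**Figure D3:**
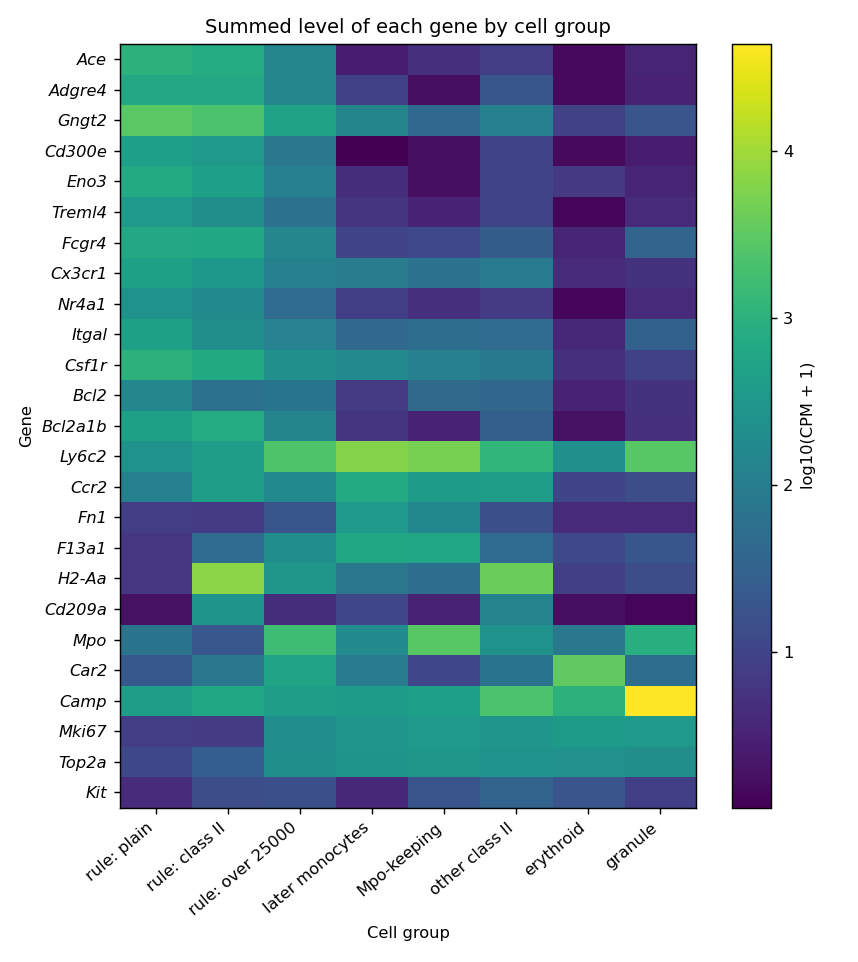
Summed level of monocyte and other lineage genes (rows) in each cell group (columns), coloured by log10 of CPM with 1 added. Gngt2 stands at 3010 CPM in plain cells and 139 in later monocytes, and Ly6c2 at 254 and 6241.

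Of the 20 listed nonclassical monocyte genes, 18 were over 50 CPM, of which 17 were past 2-fold upwards and 0 downwards, with a median log2 ratio of 2.51. In plain cells 19 of 19 were higher, with a median of 3.18. Of the 4 markers given for the cells, Ace, Adgre4 and Gngt2 were among the 15 genes with the largest excess and Cx3cr1 was not. Ace stood at 548 CPM against 1.77 in later monocytes, a ratio of 310 (95% interval 200 to 509), and at 1000 CPM in plain cells. Adgre4 stood at 398 CPM against 7.88. Both of these chose the cells. Gngt2 stood at 1657 CPM against 139, a ratio of 11.9 (11.3 to 12.7), and reached 3010 CPM in plain cells, a ratio of 21.7 (20.4 to 23.1). Cx3cr1, the fractalkine receptor, stood at 277 CPM against 95.8, a ratio of 2.89 (2.63 to 3.18), and at 468 CPM in plain cells. It was thus shared with later monocytes to a greater degree than Gngt2.

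Further surface receptors were higher, though single cells of both groups overlapped. Cd300e, an activating receptor that pairs with DAP12, had 654 counts (243 CPM) in the Ace/Adgre4 cells and 2 counts in later monocytes, a ratio of 1373 with a counting interval of 379 to 11364. Cd300e ran from 0 to 26 counts a cell in plain cells and from 0 to 2 in later monocytes. Treml4, which binds dying cells, stood at 189 CPM against 4.87 (337 in plain cells), and Fcgr4 at 393 CPM against 9.56 (662 in plain cells). Cd300ld stood at 406 CPM against 17.1. Counts a cell ran from 0 to 16, 23 and 21 for Treml4, Fcgr4 and Cd300ld in plain cells, and from 0 to 7, 9 and 9 in later monocytes. Eno3, the muscle form of enolase, stood at 395 CPM against 3.72. Spn (CD43) differed less, at 368 CPM against 131, as did Cd300a, at 284 against 139, which was found in 90.2% of plain cells and 59.9% of later monocytes after thinning. Cd274, which encodes the checkpoint ligand PD-L1, stood at 31.6 CPM against 0.974, and at 63.9 CPM in plain cells. Ear2, a ribonuclease gene with close paralogs, stood at 1023 CPM against 165.

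Classical monocyte genes were low. Of 13 listed, 12 were over 50 CPM, 10 were at least 2-fold lower and none higher, with a median log2 ratio of -1.80. In plain cells 9 of 12 were lower, with a median of -1.97. Ly6c2, the gene of the Ly6C antigen, stood at 1369 CPM in all Ace/Adgre4 cells and 6241 in later monocytes, 4.56-fold lower. Plain cells held 254 CPM of Ly6c2, 24.6-fold lower (21.9 to 27.7), and 3317 of the 3681 Ly6c2 counts were in the deep cells. F13a1, coagulation factor XIII, behaved alike, at 110 CPM in all, 5.33 in plain cells and 643 in later monocytes. Ccr2 (167 CPM in all, 117 in plain, 734) and Fn1 (13, 7.10, 331) were used to choose the later monocytes. Chil3, a chitinase-like protein, was also lower, at 605 CPM against 1698. Plac8 was not, at 4627 CPM against 3471.

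Other genes among the 15 with the largest deficit were Ly6a2, Mmp8, AI839979, Ly6g, C1galt1c1, S100a10, Slpi, Hopx, Racgap1 and Asf1b, beside Fn1, F13a1, Ly6c2 and Ccr2. Of the 15, 5 were also among the 15 lowest genes of the plain cells, and 14 were at least 2-fold lower in both A963 and A965, where 4.63% and 5.41% of all genes were. The 15 were picked from these same cells, so this too is no independent check. Racgap1 and Asf1b act in cell division and in chromatin assembly. Ly6a2 stood at 121 CPM against 1241, and S100a10, a partner of annexin A2, at 287 against 1373. Slpi, an inhibitor of leukocyte proteases, stood at 122 CPM against 495. Mmp8, the neutrophil collagenase, stood at 5.58 CPM against 112.

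**Figure D4:**
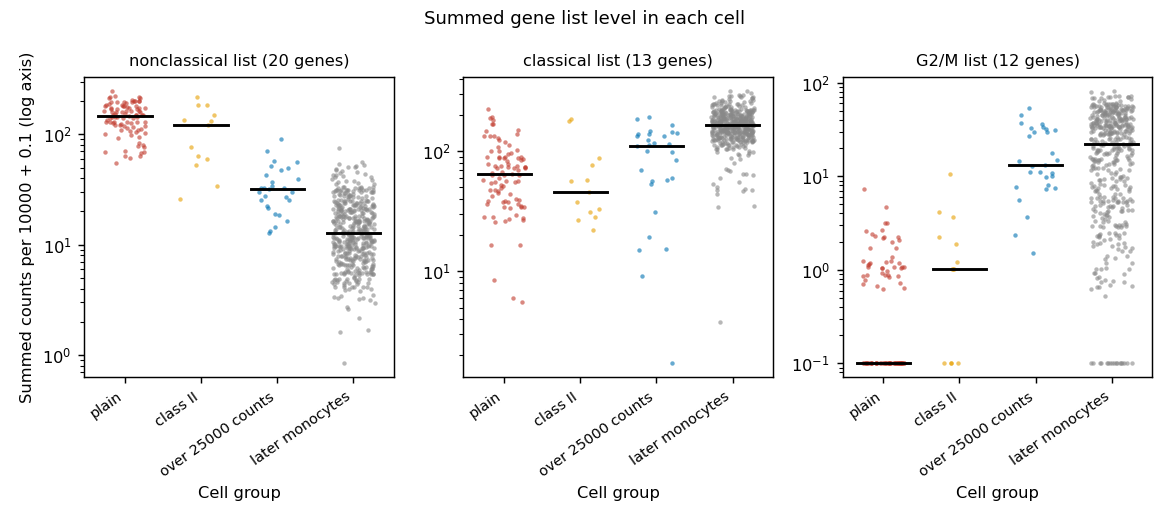
Summed counts per 10000 of 3 gene lists with 0.1 added (log y axis) in each cell, by cell group (x axis). Black lines are medians: the nonclassical list has 147 in plain, 123 in class II, 32.1 in deep cells and 12.7 in later monocytes, and the G2/M list 0, 0.930, 13.3 and 21.8.

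Transcription factors moved in a few members. Of 22 listed, 12 were over 50 CPM, of which 4 were past 2-fold upwards and 0 downwards, with a median log2 ratio of -0.02. Nr4a1, the nuclear receptor on which nonclassical monocytes depend, stood at 139 CPM against 7.26, a ratio of 19.2 (15 to 24.6), and at 248 CPM in plain cells. Klf2, a Krüppel-like factor of quiescent and vessel-facing cells, stood at 118 CPM against 30.9. Pou2f2 stood at 276 CPM against 68.7. The fourth, Myb, a progenitor factor, stood at 52.1 CPM against 16.7 but at 11.5 CPM in plain cells, and 121 of its 140 counts were in the deep cells. Spi1 (PU.1) stood at 633 CPM against 429 and at 923 CPM in plain cells, where it passed 2-fold. Set against later monocytes of at most 25000 counts, Spi1 in plain cells did not pass 2-fold. Irf8, which directs monocyte and dendritic cell fate, stood at 349 CPM against 454, and at 159 CPM in plain cells, 2.85-fold lower (2.46 to 3.33). Klf4 differed little, at 103 CPM against 129. Irf5 was also near, at 139 CPM against 158.

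Adhesion genes, which govern crawling on endothelium and exit from marrow, were mostly higher. Of 16 listed, 15 were over 50 CPM, 8 were at least 2-fold higher and 2, Ccr2 among them, lower, with a median log2 ratio of 1.43. In plain cells 9 of 15 were higher and 3 lower, with a median of 1.90. Set against later monocytes of at most 25000 counts, plain cells had 8 of 14 higher and 2 lower, with a median of 1.73. Of all 3341 genes in that comparison, 11.6% were higher and 8.56% lower. Itgal, the alpha chain of LFA-1, stood at 271 CPM against 41.1, a ratio of 6.59 (5.86 to 7.42), and at 465 CPM in plain cells, and Itgb2, its beta chain, at 502 against 169. Itga4, a chain of VLA-4, stood at 343 CPM against 104. Itgax stood at 50.9 CPM against 3.63, and Pecam1 at 55.8 against 14.1. S1pr5, the sphingosine phosphate receptor used by nonclassical monocytes to leave marrow, stood at 52.1 CPM against 0.708, and at 84.3 in plain cells. Cxcr4, which retains cells in marrow, stood at 26.0 CPM against 52.3 and at 16.0 in plain cells. Selplg, a selectin ligand, differed little, at 306 CPM against 368.

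The growth factor receptor and survival list held 5 of 10 genes at least 2-fold higher and none lower, with a median log2 ratio of 1.27. In plain cells 6 of 10 were higher and none lower, with a median of 2.02. Csf1r, the receptor for CSF1, stood at 582 CPM against 162, a ratio of 3.58 (3.34 to 3.83), and at 999 CPM in plain cells. Bcl2, an inhibitor of apoptosis, stood at 103 CPM against 6.64, a ratio of 15.5 (11.9 to 20.2). Bcl2a1b stood at 311 CPM against 5.05, Bcl2a1d at 256 against 5.67 and Bcl2a1a at 126 against 2.74. How reads were divided among these near copies is not given in the sources used here. Mcl1, a further inhibitor, stood at 168 CPM against 95.3 and at 288 in plain cells. Bax, which promotes apoptosis, differed little, at 196 CPM against 174. Csf2rb and Csf3r, receptor chains for GM-CSF and G-CSF, also differed little, at 74.4 CPM against 91.9 and at 61.7 against 60.5.

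Among Fc and pattern receptors, Fcgr4 and Tlr7 of 10 were at least 2-fold higher and 0 lower, with a median log2 ratio of 0.10. In plain cells 3 of 10 were higher, Fcer1g being the third, with a median of 0.56. Set against later monocytes of at most 25000 counts, plain cells had 2 of 10 higher, without Fcer1g, where 11.6% of all 3341 genes were. Fcgr1 was lower there, and the median was 0.28. Tlr7, a sensor of single-stranded RNA, stood at 66.6 CPM against 12.7, and at 122 in plain cells. The other IgG receptors were near, with Fcgr3 at 204 CPM against 231 and Fcgr2b at 94.4 against 104. Fcgr1, the high-affinity receptor, stood at 25.7 CPM against 52.2. Tyrobp, the DAP12 adaptor, stood at 2558 CPM against 2292. Tlr4, the LPS receptor, had 15 counts (5.58 CPM) in all Ace/Adgre4 cells, too few to compare.

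Of the lipid list, 5 of 7 genes passed 2-fold upwards and 0 downwards, with a median log2 ratio of 2.30. In plain cells 7 of 9 were higher, and Fabp5, a fatty acid carrier, was lower, at 27.5 CPM against 151. Apoe, the lipoprotein ligand apolipoprotein E, stood at 1207 CPM against 132, a ratio of 9.15 (8.6 to 9.74), and at 1600 in plain cells. Pltp, phospholipid transfer protein, stood at 219 CPM against 1.86 (422 in plain cells), and Fabp4 at 188 against 0.531. The sterol and fatty acid sensors Nr1h3 (LXR alpha) and Pparg stood at 40.2 CPM against 1.15 and at 43.9 against 1.15, and Abcg1, a cholesterol exporter, at 81.4 against 31.8. Of the lysosome list 1 of 12 was higher, Ctsb, at 1421 CPM against 649, and the median was -0.17. Lyz2, lysozyme, stood at 8234 CPM against 15635 and at 13587 in plain cells.

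The renin-angiotensin list had 3 of its 9 genes in the table, and Ace alone passed 50 CPM. Anpep, an aminopeptidase of the same pathway, had 1 count and Agtr1a, an angiotensin receptor, had 0 in the Ace/Adgre4 cells. The complement and scavenging list changed direction with the cells used. With all cells Lrp1 was higher, and C3 and Cfp lower, of 3 genes over 50 CPM, with a median of -1.01. With plain cells Cfb, C5ar1 and Lrp1 were higher and C3 lower of 5, with a median of 1.89. Lrp1, a scavenger receptor for lipoproteins, stood at 196 CPM against 91.4. C3 stood at 50.9 CPM against 169.

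Of the interferon and inflammatory lists, fewer genes passed 2-fold with all cells than with plain cells. Of the interferon-stimulated genes none of 7 passed 2-fold either way, with a median of 0.46, and in plain cells 4 of 7 were higher, with a median of 1.08. Against later monocytes of at most 25000 counts, plain cells had 0 of 7 higher, with a median of 0.56. Among the 4 were Irf7 (118 CPM against 40.8), Ifitm2 (2231 against 1009) and Ifitm6 (1235 against 546). Isg15, an interferon-induced modifier, stood at 44.4 CPM in plain cells against 25.1. Of the NF-kB list 2 of 5 were higher, with a median of 0.79: Nfkbia, the NF-kB inhibitor, at 196 CPM against 73.0, and Nfkbiz at 67.3 against 7.35. In plain cells 5 of 6 were higher, with Ccl6, Icam1 and Nfkb1 beside these, and the median was 1.30. Set against later monocytes of at most 25000 counts, plain cells had 3 of 6 higher, without Ccl6 and Nfkb1, with a median of 1.07. Of all 3341 genes in that comparison, 11.6% were higher. Of the immediate early genes 2 were over 50 CPM and neither passed 2-fold, with a median of 0.48. In plain cells Jund and Zfp36 passed of 3, with a median of 1.37. Fos, which cell handling is known to induce, had 5 counts in all Ace/Adgre4 cells and 0 in plain cells, against 14.2 CPM in later monocytes.

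Genes of dividing cells were low in plain cells. All 12 listed G2/M genes were at least 2-fold lower, with a median log2 ratio of -1.27 in all Ace/Adgre4 cells and of -3.75 in plain cells. Mki67, a marker of cycling cells, stood at 115 CPM in all, 7.10 in plain cells and 290 in later monocytes, 40.9-fold lower in plain cells (20.7 to 94.8). Top2a stood at 120, 10.7 and 267 CPM, and Ube2c at 210, 10.7 and 695. Of the S phase genes 1 of 10 was lower in all cells (median -0.32), against 9 of 9 in plain cells (median -2.00). Thinned to 8800 counts, Mki67 was found in 6.52% of plain cells, 61.5% of later monocytes and 72.4% of deep cells. Summed over the G2/M list, the level in a cell had a median of 0 per 10000 in plain cells, where 48 of 92 had no count, of 13.3 in deep cells and of 21.8 in later monocytes. Of the 310 Mki67 counts of the Ace/Adgre4 cells 287 were in the deep cells, whose other genes are given above. The limit of 25000 counts applies to plain cells alone, while 186 of the 454 later monocytes (41.0%) lay above it. Against the 268 later monocytes of at most 25000 counts, an alternative chosen after seeing the data, 11 of 11 G2/M genes and 6 of 7 S phase genes were lower in plain cells, where 8.56% of 3341 genes were. The medians were -3.49 and -2.11. Mki67 stood at 276.5 CPM in these later monocytes, 38.9-fold higher than in plain cells (19.7 to 90.4), and was found in 53.4% of them after thinning. Their summed G2/M list had a median of 10.3 per 10000.

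Within the 92 plain cells, levels differed widely from cell to cell, in counts per 10000. Ace ran from 2.67 through a median of 8.55 to 24.1, and Adgre4 from 1.30 through 6.56 to 18.9. Cx3cr1 ran from 0 through 4.67 to 14.7 and was found in 84 cells. Csf1r, found in all 92, ran from 0.669 through 9.35 to 29.5. Cd300e ran from 0 through 3.08 to 22.9 and was found in 73 cells. Nr4a1 ran from 0 through 2.27 to 8.95 and was found in 71. Ly6c2 ran from 0 through 1.03 to 21.1 and was found in 69. It made up 286 of the 1126738 counts of plain cells and 7714 of the 33601314 counts of erythroid cells. A count of Ly6c2 in a plain cell therefore does not show that the cell made it. The widest range was that of Apoe, from 0 through 6.91 to 153, with counts in 67 cells. At these depths a value of about 1 per 10000 is a single count, so a 0 for Cd300e, Nr4a1 or Ly6c2 does not show that the gene was silent.

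Small groups of plain cells carried further genes together. The complement C1q genes C1qa, C1qb and C1qc, made by tissue macrophages, summed to at least 5 per 10000 in 11 of 92 plain cells (12.0%, interval 6.12 to 20.4) and in 2 of 454 later monocytes (0.441%). Of the 11, 9 carried A965, 1 A961 and 1 A962. They had a median Gngt2 of 33.0 per 10000, against 30.1 in the other plain cells, and a median Apoe of 13 against 5.58. Mertk, Vcam1 and Cd5l, further macrophage markers, had 4 counts each over all plain cells, while Adgre1 (F4/80) stood at 232 CPM against 43.0 in later monocytes. Spic, a factor of red pulp and marrow macrophages, had 24 counts (21.3 CPM) in plain cells and 6 (0.531 CPM) in later monocytes. Maf, a macrophage factor, had 33 counts, all in A965, and Axl, a receptor for dying cells, 19. Ly6c2 was at least 5 per 10000 in 12 plain cells (13%, interval 6.93 to 21.7). These 12 had a median Cd300e of 0.314 against 3.83 in the others, and a median Ace of 5.35 against 9.46. Gngt2 was nearly the same in both, at 28.7 and 30.3. The cutoffs of 5 per 10000 were chosen after seeing the data.

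The 13 class II cells held nonclassical genes beside antigen presentation genes. Against plain cells, 0 of 19 nonclassical genes were at least 2-fold higher and 3 lower, with a median log2 ratio of -0.52. The 3 were Itgal (216 CPM against 465), Fabp4 (105 against 323) and Pglyrp1 (464 against 1440). They held 758 CPM of Ace, 667 of Adgre4, 2222 of Gngt2, 353 of Cd300e and 647 of Fcgr4, against 1000, 672, 3010, 436 and 662 in plain cells. H2-Aa stood at 6863 CPM against 5.33 and H2-Ab1 at 6745 against 47.0, both used to choose the cells. H2-Eb1, the partner class II chain, stood at 6216 CPM against 9.76, and Cd74, the class II chaperone, at 10981 against 205. In single cells H2-Aa ran from 11.7 through 42.0 to 207 per 10000, and in plain cells it was found in 4 of 92 and reached 1.61. H2-Aa chose the class II cells, so this separation is set by the rule. Ccl5, a chemokine, stood at 601 CPM against 8.88, and Cd209a, a lectin of monocyte-derived dendritic cells, had 41 counts against 1. Cd83, a marker of mature dendritic cells, had 47 counts against 4. Ccl4 (69 counts, in 23.1% of the class II cells) came from few cells. Of the 13 class II cells 8 carried A963 and 5 A965, whereas 84 of the 92 plain cells carried A965, so this contrast is also one of hashtags. Of the class II cells' counts, A963 held all 41 of Cd209a, 43 of 47 of Cd83, 68 of 69 of Ccl4 and 80 of 92 of Ccl5. The 6 plain A963 cells had 0, 4, 1 and 0 counts of these genes in turn.

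Of the NF-kB list 5 of 11 genes were at least 2-fold higher in class II than in plain cells and none lower (median log2 ratio 0.83), where 9.32% of all 3519 genes were higher and 11.3% lower. These were Nfkbiz, Il1b, Ccl3, Ccl4 and Cd83. Of the class II cells' counts, A963 held 42 of 51 of Nfkbiz and all 12 of Ccl3. Il1b, interleukin 1 beta, stood at 438 CPM against 36.4 and was found in 4 of 13 cells, with 56 of its 67 counts in A963. Apoe stood at 3673 CPM against 1600, while 5 other lipid genes of 8, among them Apoc2, Pparg and Nr1h3, were at least 2-fold lower. Tppp3 stood at 124 CPM against 631 and Hp, haptoglobin, at 85.0 against 525. Ccr2 stood at 431 CPM against 117 and was found in 9 of 13 cells, 7 of them of A963. Of its 66 counts A963 held 62 and A965 4, so the higher level came from A963. Batf3, a dendritic cell factor, had 11 counts (71.9 CPM), all in A963, against 16 (14.2 CPM). Clec9a, Zbtb46 and Siglech had 0 counts in the 13 cells.

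Compared with the 367 other class II cells of the pool, the 13 cells were higher on the nonclassical list. Of its 18 genes over 50 CPM, 17 passed 2-fold upwards and 0 downwards, where 18.2% of 3576 genes were higher and 15.7% lower. The 13 cells met the Ace and Adgre4 rule and the 367 did not, so part of this difference is set by the rule. Ace stood at 758 CPM against 7.06, and Ear2 at 1928 against 46.3. Ly6d, a gene of lymphoid and plasmacytoid dendritic precursors, had 0 counts in the 13 cells and stood at 690 CPM in the others. Flt3, the growth factor receptor of dendritic cell precursors, had 2 counts (13.1 CPM) against 62.5 CPM. Mki67 had 1 count (6.54 CPM), against 279 CPM in the other class II cells. Scrublet called none of the 13, whose total counts ran from 9045 to 21504.

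The hashtags differed in how many of these cells they held. The Ace/Adgre4 cells numbered 1 of 68 in A961, 2 of 104 in A962, 24 of 4716 in A963, 0 of 73 in A964 and 109 of 5567 in A965. The share was 0.509% in A963 (interval 0.326 to 0.756) and 1.96% in A965 (1.61 to 2.36), a ratio of 3.85 (2.46 to 6.26). For A964, 0 of 73 cells allows a share of up to 4.11% taken as 3 cells of the total, and of up to 4.93% by the Clopper-Pearson limit, and the intervals of A961 (0.0372 to 7.92) and A962 (0.234 to 6.77) held the values of both A963 and A965. Plain cells numbered 6 in A963 (0.127%, 0.0467 to 0.277) and 84 in A965 (1.51%, 1.21 to 1.86), a ratio of 11.9 (5.23 to 33.2). The other kinds did not follow: class II cells numbered 8 and 5 (ratio 0.529, 0.136 to 1.84), and deep cells 9 and 19 (ratio 1.79, 0.771 to 4.49). Later monocytes numbered 113 in A963 (2.40%) and 312 in A965 (5.60%), a ratio of 2.34 (1.88 to 2.93). Plain cells were thus 6 of the 24 Ace/Adgre4 cells of A963 and 84 of the 109 of A965. With 1 sample a hashtag, population, mouse and treatment cannot be told apart, and fewer cells of a kind cannot be told from a different sort gate.

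**Figure D5:**
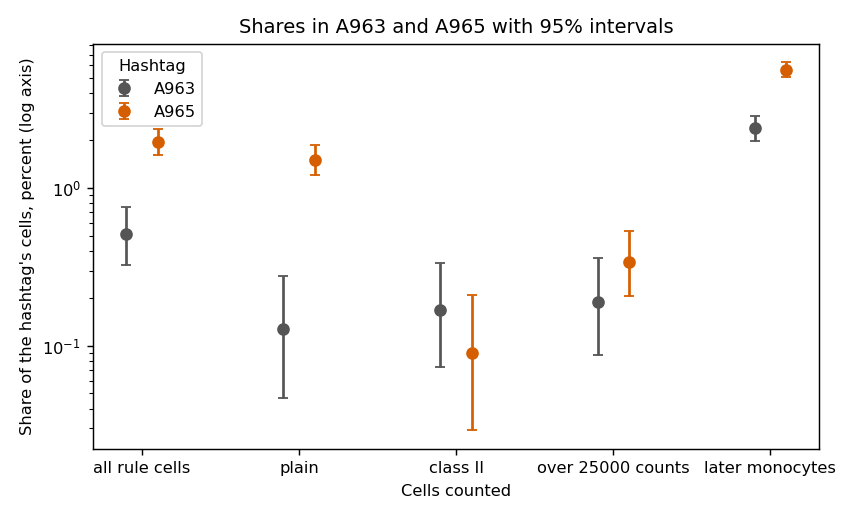
Share of the hashtag's kept cells (percent, log y axis) in A963 and A965 for each kind of cell (x axis), with exact 95% binomial intervals as bars. Plain cells stand at 0.127% in A963 and 1.51% in A965, while class II and deep cells have intervals that overlap.

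Xist was found in 90.8% of all A963 cells and 12.4% of all A965 cells kept. Plain cells with Xist numbered 4 of 6 in A963 and 4 of 84 in A965, and 50 of the 84 had RNA of a Y-linked gene. Scrublet called 2 of the 6 plain A963 cells and none of the 84 plain A965 cells.

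Within the Ace/Adgre4 cells, 245 of 3534 genes (6.93%) were at least 2-fold higher in A965 than in A963 and 258 (7.3%) lower, with a median log2 ratio of -0.05. This contrast mixes kinds, since A963 gave 9 deep and 8 class II cells of its 24. Limited to plain cells, 588 of 3607 genes (16.3%) were higher and 576 (16%) lower, from just 80407 summed counts in A963, where 4 counts make about 50 CPM. The 10 genes with the largest excess in A965 were Tppp3, Pltp, Eno3, Lrp1, Cd302, F10, Serpinb6a, Slc16a3, AW112010 and Pla2g7. All 10 kept their sign in plain cells and 8 stayed past 2-fold, where 16.3% of all genes were. The 10 were picked from cells that include these plain cells, so this is no independent check. Tppp3, a tubulin-binding protein, stood at 384 CPM against 73.0 in all, and at 664 against 24.9 in plain cells, where A963 had 2 counts (ratio 26.7, 7.36 to 221). It was found in 70 of 84 plain A965 cells, running from 0 through 5.74 to 28.8 per 10000, and in 2 of 6 plain A963 cells, with a highest value of 0.975. Pltp stood at 276 CPM against 58.1 in all and at 449 against 124 in plain cells, and Eno3 at 498 against 118 and at 786 against 224.

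Among the 10 genes with the largest deficit in A965 were Car2, Hba-a1, C1qtnf12, Xist, Hba-a2, Hbb-bt, Hbb-bs, Hmgb3 and Ubac1, mostly erythroid genes. Car2, carbonic anhydrase, stood at 37.5 CPM in A965 and 1064 in A963, and Hba-a1 at 46.2 and 1224. Of the 5 deep cells that met the erythroid rule, 4 carried A963. In plain cells Hba-a1, Hba-a2, Hbb-bt, Hbb-bs and Hmgb3 changed sign, from at most 3 counts each in A963. Xist stood at 18.0 CPM against 548 in all and at 8.92 against 535 in plain cells.

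The nonclassical list showed 11 of 18 genes at least 2-fold higher in A965 and none lower, with a median log2 ratio of 1.04. In plain cells it was 4 of 19, Cd300e, Treml4, Eno3 and Fcgr4, with a median of 0.65. Over all genes, 6.93% were higher in all Ace/Adgre4 cells and 16.3% in plain cells. The 4 of 19 thus lies near the share of all genes. Gngt2 stood at 1990 CPM against 715 in all and at 3107 against 1977 in plain cells, a ratio of 1.57 (1.34 to 1.85). In the 6 plain A963 cells Gngt2 ran from 7.14 through 17.4 to 37.1 per 10000, and in the 84 of A965 from 8.83 through 30.3 to 60.5, so the ranges overlapped. Cd300e was found in 3 of 6 and in 69 of 84 plain cells. Apoe went the other way in plain cells, at 1470 CPM in A965 against 2326 in A963. The S phase list had 7 of 12 genes lower in A965 and the G2/M list 6 of 12, where 7.3% of all genes were. The medians were -1.18 and -1.0. In plain cells 2 S phase genes and no G2/M gene reached 50 CPM. The interferon list had a median of 0.49 in all and of 0.06 in plain cells, with Irf7 the 1 of 7 past 2-fold, in plain cells.

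At the edges of the rule, 6 cells had exactly 3 counts of Ace and a median Gngt2 of 8.07 per 10000, while 18 cells left out with 2 counts had 10.1. With exactly 2 counts of Adgre4 12 cells had a median Gngt2 of 12.7, and 11 cells left out with 1 count had 19.8. A further 17 cells had at least 3 counts of Ace and none of Adgre4, with a median Gngt2 of 5.76. Camp of 50 per 10000 or more left out 19 cells, of which 14 had more than 25000 counts, and no included cell lay between 30 and 50. Cells 1 count short of the Ace or the Adgre4 limit thus had a higher median Gngt2 than cells at that limit. In cells with no Adgre4 the median was lower. These groups held 6 to 18 cells of mixed depth: 3 of the 6 and 6 of the 18 had more than 25000 counts.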

How the data were processed

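Whole-number counts for 25661 genes in 10731 cells were deposited by the authors as a single table. The file headers give each cell's hashtag in its name: 10535 cells had a single hashtag, 190 were named doublets and 6 had none. Cells under 500 genes or over 20% mitochondrial counts (7 in all) were dropped. The submitters' processing notes name GRCm38, Seurat 4.2.0 and R 4.2.1 but no step for any of them. The aligner, the counting tool and whether counts are of molecules or of reads are not given in the sources used here. Values of 2 were 54.7% as frequent as values of 1, so reads of 1 molecule may be counted more than once.

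Counts of a group's cells were added up and expressed as CPM (numpy 2.4.6, pandas 2.3.3, scipy 1.17.1). Log2 ratios had 10 CPM added, and genes needed 50 CPM in either group. Ratios have exact conditional binomial and shares Clopper-Pearson 95% intervals, with no p-value. The ratio intervals treat every count as an independent draw and do not cover the spread between cells. If reads of 1 molecule were counted more than once, the ratio intervals are too narrow even for counting error. The ratio script was tested on simulated data. Named genes were the 15 (monocytes) or 10 (hashtags) largest ratios in each direction among genes of 100 CPM or more found in 25% of cells, without mitochondrial, ribosomal, Gm-number and Rik names, and members of 15 lists, of which 8 of 287 list and marker genes were missing from the table. The members and lists were chosen with earlier results of these data known. Cells were thinned to 8800 counts for shares of cells with a count. Scrublet (scanpy 1.11.5, expected rate 5%) called 2.26% of kept cells and these stayed in. Promoters came from RefSeq, GRCm38.p6. Some genes that the naming rule or the lists include are not reported here.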

Additional observations from a re-analysis of the deposited data

Results flagged for a closer look

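Cells that the authors had named doublets, because more than a single hashtag was detected, were not used in the comparisons. Of these 190 cells, 4 (2.11%, 95% Clopper-Pearson interval 0.577 to 5.30) met the Ace, Adgre4 and Camp rule. The interval holds the 1.29% of cells kept. All 4 had Cd300e counts, 3 had Ly6c2, and 1 had both Xist and a Y-linked gene. Their total counts ran from 10637 to 67028, and Gngt2 from 3.43 to 46.1 per 10000. What share of the kept cells are such pairs with a single hashtag was not tested.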

How the results depend on the processing

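The number of cells meeting the rule stayed between 92 and 155 under all alternatives. Thinning each cell to 8800 counts before the rule gave 0.233% of A963, 1.49% of A965 and a ratio of 6.39. Plain cells alone, an alternative chosen after seeing the data, gave 0.127%, 1.51% and 11.9. Against later monocytes, the count of higher genes was 412 with no floor, 337 with thinning and 503 with plain cells, and that of lower genes 222 with cells weighted equally and 410 with plain cells. Between hashtags the higher and lower counts were 491 and 568 with no floor and 588 and 576 with plain cells.

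Of the list medians against later monocytes 166 stayed near their value over the alternatives, 26 moved and 3 reversed. With plain cells the medians were 3.18 (nonclassical), 2.02 (survival), 6.42 (renin-angiotensin), 3.08 (lipid), 1.08 (interferon), 1.37 (immediate early), -2.00 (S phase) and -3.75 (G2/M). Each renin-angiotensin value given here, except that with no floor, is the ratio of Ace alone. Ace chose the cells, so these values describe no change of the list. The complement median reversed to 1.89 with plain cells and to 0.16 with no floor. Plain cells against later monocytes of at most 25000 counts, also chosen after seeing the data, gave 387 higher and 286 lower genes, and medians of 6.33 (renin-angiotensin), 1.11 (immediate early), -2.11 (S phase), -3.49 (G2/M) and a reversed 0.27 (complement). With no floor the survival median was 0.67 and the renin-angiotensin median 0.053, and with 1 CPM added the latter was 7.63. Within A963 alone the medians were 0.22 (adhesion), 4.77 (renin-angiotensin), 2.02 (NF-kB), 1.24 (immediate early) and -0.59 (G2/M). Equal weights gave 1.6 (NF-kB), -0.93 (S phase) and -2.08 (G2/M), and thinning 1.67, -1.01 and -2.04.

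Between hashtags 108 list medians stayed near their value, 10 moved and 1 reversed. With plain cells they were -0.52 (classical), 0.14 (Fc), 1.42 (complement), 0.16 (lysosome), 0.75 (NF-kB) and a reversed 0.90 (S phase). Thinning gave -0.38 (classical), 1.82 (complement) and -0.93 (NF-kB), equal weights -0.84 (NF-kB) and no floor 0.57 (immediate early). In plain cells the log2 ratios reversed to 1.69 for Hba-a1, 1.19 for Hba-a2, 1.84 for Hbb-bt, 0.38 for Hbb-bs and 0.58 for Hmgb3, from 0 to 3 counts in A963. The causes were not tested. The depth of A963, with 6 plain cells, limits every comparison between hashtags in plain cells. No leaving out of replicates was possible, since no hashtag had one.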
